A study of Capra hircus with 6 samples.

Results

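A set of 9 complement genes were followed in the hypothalamus of female Anhuai goats, namely the C1q chain genes C1QA, C1QB and C1QC, the C1 protease genes C1R and C1S, the central component C3, the anaphylatoxin receptors C3AR1 and C5AR1, and ITGAM, which encodes the alpha chain of complement receptor 3. These 9 genes were chosen by name, with earlier results of the same libraries known, from the 20225 genes of the mRNA table, and the FPKM values (fragments scaled by transcript length and mapped fragments) of all transcripts of a gene were summed in each library. Hypothalamus came from 3 pubertal goats aged 4.5 to 5 months and 3 prepubertal goats aged 2.5 to 3 months, with 1 library per goat and no treatment. All 6 goats were kept under the same conditions on 1 farm, puberty was judged from oestrus detected by male goats and from the look of the vulva, and the pubertal goats were sampled late in the follicular phase, so age, body size and cycle phase cannot be told apart from stage. Since the choice was made with the values of both stages known, the differences of the 9 genes between stages are described without a test.

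Complement is a cascade of plasma proteins that marks cells and debris for removal. The classical pathway starts when C1q, built from the products of C1QA, C1QB and C1QC, binds a surface and activates the serine proteases C1r and C1s, and it leads to the cleavage of C3, whose fragments are bound by receptors on phagocytes. In the brain C1q is made mainly by microglia, the resident macrophages, and C1q and C3 are known for tagging synapses that microglia then take up through complement receptor 3.

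PMCH, a neuropeptide of the lateral hypothalamus, lay between 673 and 2173 FPKM, while AVP, the vasopressin gene, was listed at 0 in all 6 libraries. The FPKM values alone cannot show whether RNA of a gene listed at 0 was absent or was missed by its gene model. GNRH1, the gonadotropin-releasing hormone gene, lay between 13.5 and 15.98 FPKM in the pubertal goats and between 5.34 and 11.6 FPKM in the prepubertal goats. Other hypothalamus markers were uneven between libraries. POMC ran from 22.9 to 429 FPKM, highest in pubertal replicate 3, and AGRP from 5.69 to 176 FPKM, highest in prepubertal replicate 2. SIM1 ran from 3.03 to 4.11 FPKM. All 20 microglia markers looked up were found and none was at 0. The FPKM tables carry no counts, so no depth or counting interval is given for single values. The median log2(FPKM + 1) of the genes with a mean of at least 1 FPKM lay between 3.80 and 3.83 in the 6 libraries. Pubertal replicate 3 stood apart in markers of tissue at the border of the hypothalamus, with TTR, a choroid plexus gene, at 309 FPKM in it against 1.14 to 53.4 FPKM in the others.

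By level the genes were led by C3, not by C1q. C3 had a mean of 326 ± 60.4 FPKM (SD over the 6 libraries) and lay above 98.4% of the 16396 genes with a mean of at least 0.1 FPKM. Next came C1S with 48.8 ± 10.6, C1QA with 45.8 ± 8.54, C1QC with 44.0 ± 8.38 and C1QB with 39.0 ± 8.21 FPKM (SD, n = 6 each). These levels were close to each other, since C1S was above C1QA in 3 of 6 libraries and C1QA above C1QC in 4 of 6, whereas C1QC was above C1QB in all 6. ITGAM followed with 23.6 ± 2.76 FPKM, C1R with 13.7 ± 5.03, C3AR1 with 3.84 ± 0.761 and C5AR1 with 2.01 ± 0.317 FPKM (SD, n = 6 each), and each of these was above the next in all 6 libraries. FPKM is scaled by length, but levels of different genes also depend on the gene models used. The ratio of this C3 model to a second one, described below, lay between 1.36 and 1.52. C1S, C1QA and C1QC were each only 1.04 to 1.13 times the next gene by mean.

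**Figure D1:**
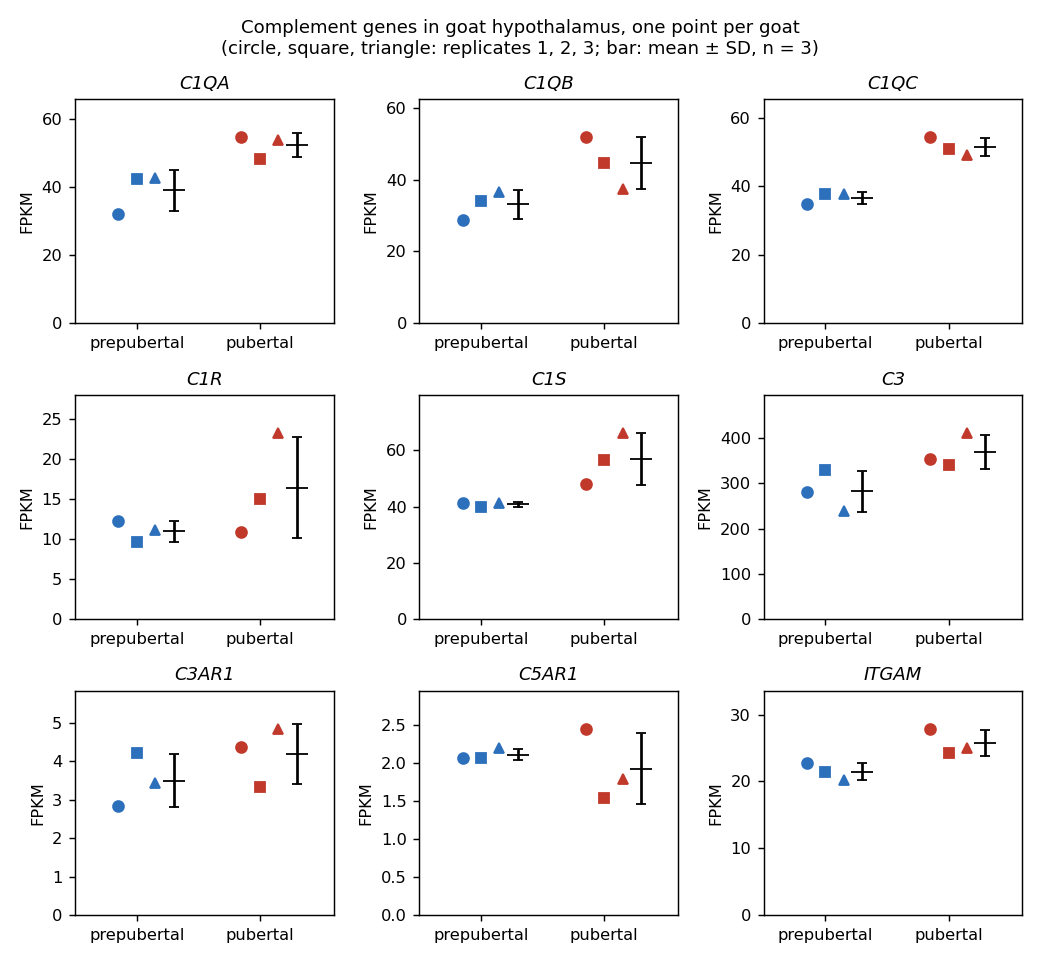
FPKM (vertical axes, from 0) of each of the 9 complement genes in the 3 prepubertal (blue) and 3 pubertal (red) goats, with the mean and SD of each stage in black. The stages are apart in the C1q chains, C1S, C3 and ITGAM, and they overlap in C1R, C3AR1 and C5AR1.

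The pubertal goats had more RNA of all 3 C1q chains than the prepubertal goats. Values are given in the order of replicates 1, 2 and 3. C1QA reached 54.9, 48.5 and 54.05 FPKM in the pubertal goats against 32.2, 42.5 and 42.7 FPKM in the prepubertal goats. C1QB reached 51.97, 44.8 and 37.5 FPKM against 28.8, 34.2 and 36.6 FPKM. C1QC reached 54.4, 50.8 and 49.2 FPKM against 34.6, 37.6 and 37.6 FPKM. Every pubertal library lay above every prepubertal library in each chain, by the narrowest margin in C1QB, where pubertal replicate 3 was close to prepubertal replicate 3.

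The stage means were 52.5 ± 3.49 and 39.1 ± 6.02 FPKM for C1QA, 44.8 ± 7.22 and 33.2 ± 4.01 FPKM for C1QB, and 51.5 ± 2.68 and 36.6 ± 1.71 FPKM for C1QC (pubertal and prepubertal, SD, n = 3 each). On log2(FPKM + 1), a scale that compresses changes of weakly expressed genes, the pubertal minus prepubertal differences were 0.42, 0.42 and 0.48, with a spread between goats of 0.17, 0.20 and 0.07 (pooled SD). The 3 chains summed to 149 ± 11.0 FPKM at puberty against 109 ± 11.6 FPKM before it (SD, n = 3 each), which is 36.5% higher. The mean log2 difference of the chains was 0.44, and with each library left out in turn it ran from 0.35 to 0.49. In these bulk samples more cells of a type and more RNA per cell cannot be told apart.

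The ratio of C1QA to C1QC lay between 0.928 and 1.14 in the 6 libraries, with a mean of 1.02 in pubertal and 1.06 in prepubertal goats. The ratio of C1QB to C1QC lay between 0.763 and 0.974, with means of 0.866 and 0.904, and it was lowest in pubertal replicate 3. Both ratios overlapped between the stages. In the ARS1.2 assembly from RefSeq, used here only for names and gene order, C1QA, C1QC and C1QB lie in this order on chromosome 2 between EPHA8 and EPHB2, with 1 other gene, LOC102187088, between C1QC and C1QB. C1QA had 2 transcripts in the table, of which XM_005676887.2 carried 92.4% of the FPKM and did not overlap between the stages, while XM_013974515.1 made up the other 7.65% and overlapped.

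Microglia markers were set beside C1q because microglia are its known source in the brain. Of the 20 markers, 12 had a log2 difference above 0, as had 8159 of all 16396 genes tested. The median of the markers was 0.07, while the median of all genes tested was -0.00. TYROBP, an adaptor of microglial receptors, averaged 105 ± 9.09 FPKM at puberty against 99.4 ± 7.11 FPKM before it. CSF1R, the receptor that keeps microglia alive, had 57.8 ± 6.76 and 54.5 ± 3.91 FPKM, and P2RY12, a purinergic receptor of resting microglia, had 43.2 ± 5.36 and 49.3 ± 7.03 FPKM (SD, n = 3 each). The stages overlapped in 17 of the 20 markers. The other 3, SALL1, OLFML3 and SELPLG, did not overlap and were higher in the pubertal goats, as were 5.91% of all genes tested. The summed FPKM of the marker list ran from 593 to 724 in pubertal and from 575 to 670 in prepubertal libraries.

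**Figure D2:**
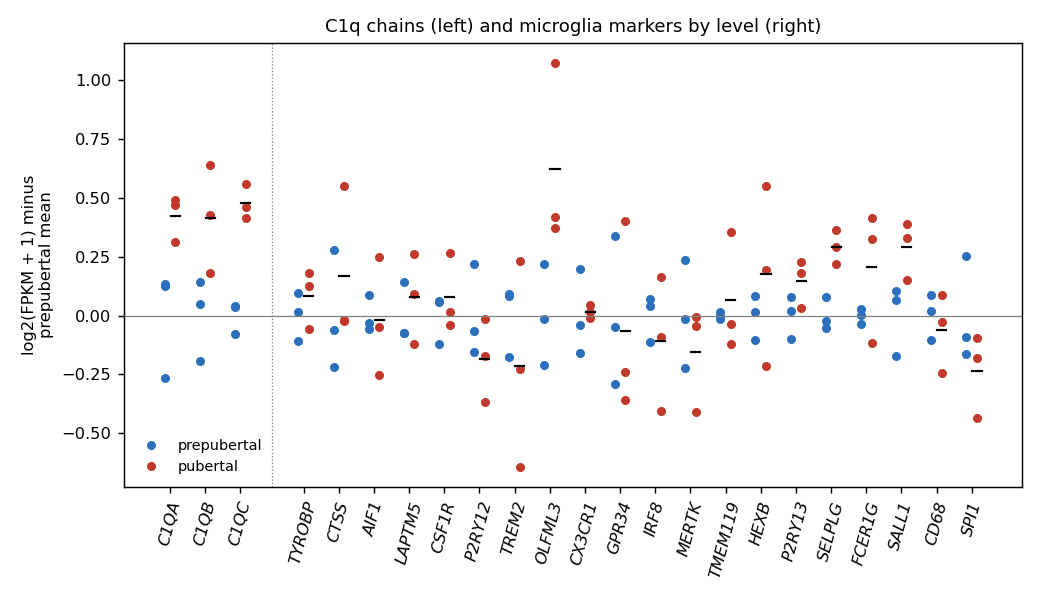
Each point is 1 goat, drawn as log2(FPKM + 1) minus the mean of the 3 prepubertal goats (vertical axis), for the 3 C1q chains and the 20 microglia markers ordered by level, with blue for prepubertal, red for pubertal and a black bar for the pubertal mean. The C1q chains have pubertal means between 0.42 and 0.48, and the markers have a median difference of 0.07, with OLFML3 the highest.

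Relative to the mean log2 value of these markers in the same library, the C1q mean was higher by 1.392, 1.422 and 1.333 in the pubertal libraries and by 0.890, 0.964 and 1.152 in the prepubertal ones. The stages did not overlap, and the difference between them was 0.38 on the log2 scale, of the 0.44 without this adjustment. Marker by marker, the ratio of the summed C1q chains to the marker was higher on average in the pubertal goats for 19 of the 20, with a median of 30.4%, and did not overlap between the stages for 12. The exception was OLFML3, for which the ratio was 3.93 in pubertal and 4.34 in prepubertal goats. The ratio to CSF1R was 2.58 ± 0.105 against 2.01 ± 0.328, and the ratio to AIF1, a calcium-binding protein of microglia and macrophages, was 1.94 ± 0.213 against 1.40 ± 0.129 (SD, n = 3 each). These ratios hold the C1q values that were known when the genes were chosen and are a description.

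Other macrophages of the brain borders also make C1q. Of 7 of their markers listed, 4 were found. These were MRC1, LYVE1, F13A1 and SIGLEC1. They summed to between 5.41 and 8.79 FPKM in pubertal and between 3.49 and 5.78 FPKM in prepubertal libraries. F13A1 alone of the 4 did not overlap and was higher in the pubertal goats, as were 5.91% of all genes tested. Of the 8 markers of blood leukocytes found, such as S100A8 and CD3E, the summed FPKM ran from 8.57 to 10.8 in pubertal and from 8.16 to 11.1 in prepubertal libraries. The part of these cells in the C1q difference was not tested.

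C1R and C1S, the proteases that C1q activates, were also higher on average in the pubertal goats, but with another order of the libraries. C1S reached 48.0, 56.5 and 66.3 FPKM in the pubertal goats against 41.3, 39.9 and 41.2 FPKM, and the stages did not overlap (log2 difference 0.46, pooled SD 0.16). C1R reached 10.9, 14.96 and 23.2 FPKM in the pubertal goats against 12.2, 9.59 and 11.1 FPKM. Its stages overlapped, and its log2 difference of 0.48 was 0.21 without pubertal replicate 3. Both proteases were highest in pubertal replicate 3, whereas all 3 C1q chains were highest in pubertal replicate 1. Among the pubertal libraries C1QB and C1QC were lowest in replicate 3, and C1QA was lowest in replicate 2. The ratio of C1S to C1R lay between 2.85 and 4.41 in the 6 libraries. C1S had 2 transcripts, and XM_013964253.1 carried 89.8% of its FPKM.

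C3 reached 355, 341 and 412 FPKM in the pubertal goats against 281, 329 and 238 FPKM in the prepubertal goats. The stages did not overlap, with prepubertal replicate 2 just under pubertal replicate 2, and the log2 difference was 0.39 with a pooled SD of 0.19. The annotation of the study held a second gene, 102188033, which its list of lncRNA neighbours names C3 as well and which has no entry in ARS1.2. This gene model reached 233, 251 and 301 FPKM in the pubertal goats against 192, 225 and 175 FPKM, and its log2 difference was 0.41. The stages did not overlap in either model, and the ratio of the first model to the second lay between 1.36 and 1.52 in the 6 libraries. The transcript of the first model is 1552 nt long and that of the second 2957 nt. Whether both models are parts of 1 gene was not tested, so the second is not taken as a separate measurement. With both models summed the log2 difference was 0.40.

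The study listed lncRNAs as neighbours of genes at a nearer and a wider distance. Only the nearer list was read here, and it held a pair of lncRNAs beside these genes. TCONS_04293813 of XLOC_2036138, listed beside the second C3 gene model, is 245 nt long, and TCONS_03935712 of XLOC_1870185, listed beside C1R, is 393 nt long. The first is shown 5′ to 3′ because it is listed beside a gene model of C3, the most abundant of the complement genes. It has no part in capitals, as no AATAAA polyadenylation signal was found in it.
TCONS_04293813: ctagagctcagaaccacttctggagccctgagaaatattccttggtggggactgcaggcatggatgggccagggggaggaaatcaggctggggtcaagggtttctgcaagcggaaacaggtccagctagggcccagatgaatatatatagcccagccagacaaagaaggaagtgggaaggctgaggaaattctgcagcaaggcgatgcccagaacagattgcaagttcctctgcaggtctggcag
TCONS_04293813 had 6.77 FPKM in pubertal replicate 1, 2.85 FPKM in prepubertal replicate 1 and 9.21 FPKM in prepubertal replicate 3, and it was listed at 0 in the other 3 libraries. TCONS_03935712 lay between 0.379 and 1.36 FPKM in the pubertal goats, and before puberty it was listed at 0 in replicate 1, with 1.80 FPKM in replicate 2 and 0.576 FPKM in replicate 3. The stages overlapped in both lncRNAs, unlike those of both C3 gene models.

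Among the receptors the differences were smaller. ITGAM, which pairs with ITGB2 to form complement receptor 3, reached 27.9, 24.3 and 24.9 FPKM in the pubertal goats against 22.8, 21.4 and 20.2 FPKM, with a log2 difference of 0.25 and a pooled SD of 0.09. The gap between the stages rested on the sum of its 2 transcripts. XM_005697735.2, which carried 96.5% of the FPKM, was at 20.9 FPKM in pubertal replicate 2 and at 22.3 FPKM in prepubertal replicate 1 and so overlapped, and XM_013974831.1 was at 3.39 FPKM in pubertal replicate 2 and listed at 0 in pubertal replicate 1 and prepubertal replicate 2. C3AR1, the receptor of the C3a fragment, was at 4.38, 3.34 and 4.85 FPKM against 2.83, 4.22 and 3.44 FPKM. C5AR1, the receptor of the C5a fragment, was at 2.45, 1.54 and 1.78 FPKM against 2.07, 2.06 and 2.19 FPKM, and was the only one of the 9 genes with a lower pubertal mean (log2 difference -0.10). This difference was -0.0029 without pubertal replicate 2 and -0.22 without pubertal replicate 1. The stages of both receptors overlapped, and the difference of C3AR1, 0.21, ran from 0.10 to 0.33 with each library left out.

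In all, 6 of the 9 genes had no overlap between the stages and were higher in the pubertal goats. Over the whole table, 969 of the 16396 genes tested (5.91%) had no overlap and were higher, and 629 (3.84%) had no overlap and were lower. As the genes were chosen on this contrast, nothing is read from their share.

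The other genes of the complement cascade were tested with limma across all 16396 genes. Of 43 genes listed, 36 were found and 30 had a mean of at least 0.1 FPKM. With Benjamini-Hochberg adjustment over all genes, limma called 0 of the 30 at the threshold of 0.05, as it did 0 of all genes (0.0%). At an unadjusted p-value under 0.05, 7 of the 30 were higher and 0 lower in the pubertal goats, against 3.51% of all genes higher and 1.65% lower. These shares depend on single libraries, since without pubertal replicate 1 the counts over all genes went from 575 to 983 higher and from 271 to 1239 lower. Of the complement genes 8 were then higher and 1, C1QBP, lower. The median log2 difference of the 30 was 0.09.

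**Figure D3:**
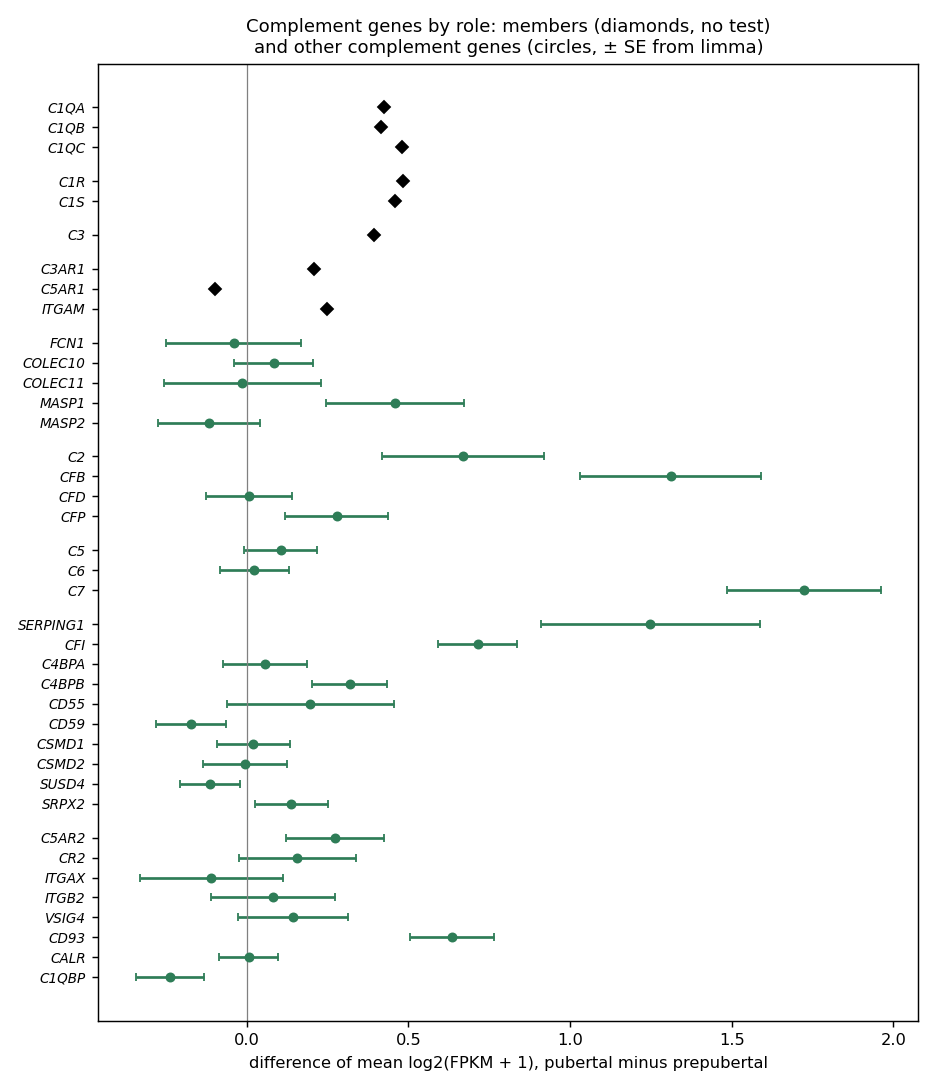
Difference of the mean log2(FPKM + 1), pubertal minus prepubertal (horizontal axis), for the 9 complement genes described above (black diamonds, without a test) and the 30 other complement genes (green circles with the standard error from limma), grouped by role from top to bottom. The C1q chains lie between 0.42 and 0.48, and C7, CFB and SERPING1 lie above 1.2.

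C7, a component of the membrane attack complex, had the largest difference of the 30. It reached 6.56, 5.89 and 11.1 FPKM in the pubertal goats against 1.85, 2.002 and 1.05 FPKM in the prepubertal goats, a log2 difference of 1.72 (standard error 0.24, adjusted p = 0.230 from limma). CFB, the protease of the alternative pathway convertase, was at 9.16, 10.7 and 21.4 FPKM against 3.82, 4.47 and 5.60 FPKM, a difference of 1.31 (standard error 0.28, adjusted p = 0.679). SERPING1, the inhibitor of C1r and C1s, was at 3.88, 8.35 and 12.9 FPKM against 2.72, 3.18 and 2.04 FPKM, a difference of 1.25 (standard error 0.34, adjusted p = 0.780). The stages did not overlap in these 3 genes, and each was highest in pubertal replicate 3.

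CFI, the protease that inactivates C3b, was at 33.8, 27.8 and 34.3 FPKM against 16.8, 21.4 and 19.0 FPKM (log2 difference 0.71, standard error 0.12, adjusted p = 0.427 from limma). CD93, a surface receptor of endothelial and myeloid cells, had 3.71 ± 0.556 and 2.02 ± 0.212 FPKM (SD, n = 3 each), and its log2 difference was 0.64. C2, of the classical convertase, and C4BPB, a regulator, were the remaining genes with an unadjusted p-value under 0.05, with log2 differences of 0.67 and 0.32. CFB, C7, SERPING1, CFI and CD93 kept an unadjusted p-value under 0.05 with any single library left out, while the count fell from 7 to 5 without pubertal replicate 3, prepubertal replicate 1 or prepubertal replicate 3.

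Among the most abundant genes of the other roles the differences were smaller. CD59, which blocks the membrane attack complex and was the most abundant regulator, averaged 304 ± 20.5 FPKM at puberty against 343 ± 32.9 FPKM before it (SD, n = 3 each). CALR, the calreticulin gene whose product binds C1q, had 306 ± 18.7 and 304 ± 8.35 FPKM (SD, n = 3 each). C1QBP, a mitochondrial protein that also binds C1q, was the only one of the 30 with no overlap and lower values in the pubertal goats. Over all genes 3.84% had no overlap and were lower, so nothing is read from this count. C1QBP was at 87.4, 79.3 and 68.1 FPKM in the pubertal goats against 91.2, 88.3 and 96.8 FPKM (log2 difference -0.24, standard error 0.11, adjusted p = 0.962 from limma). In the lectin pathway, MASP2 had 9.54 ± 1.68 and 10.4 ± 1.86 FPKM (SD, n = 3 each). ITGB2, the partner of ITGAM, had a log2 difference of 0.08 (standard error 0.19). VTN was listed at 0 in all 6 libraries, and C5 and C6 had means of 0.256 and 0.215 FPKM.

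Some fibroblast markers were also higher in the pubertal goats. By limma, DCN, COL1A1, COL1A2 and COL3A1 were higher at puberty with unadjusted p below 0.05, as were 3.51% of all genes. LUM, OGN, PDGFRA and IGF2 did not reach this threshold, and none of the 8 markers listed passed the adjustment. The 8 markers had a median log2 difference of 1.16, which was 0.49 without pubertal replicate 3. Their summed FPKM ran from 175 to 385 in pubertal and from 110 to 150 in prepubertal libraries, and none of the 8 was at 0 in all libraries. DCN, a proteoglycan of connective tissue, reached 48.3, 40.3 and 86.9 FPKM in the pubertal goats against 16.1, 28.2 and 26.1 FPKM. Like DCN, C1R, C1S, C3 and C3AR1 were highest in pubertal replicate 3, and so were all 7 of the other complement genes with an unadjusted p-value under 0.05 (C2, C7, CFB, SERPING1, CFI, C4BPB and CD93). These 7 were selected on the stage contrast, and CFI was nearly as high in pubertal replicate 1 (33.8 against 34.3 FPKM). Genes of other lists, such as ISG15 and ALDH1L1, were also highest in pubertal replicate 3, while others, such as CSF1R and P2RY12, were not. The share of all genes that were highest in it was not counted. Among the pubertal goats C1QB and C1QC were lowest in pubertal replicate 3, whereas C1QA was second to replicate 1. Without it the difference was 0.40 for C1QA, 0.53 for C1QB and 0.51 for C1QC. The part of fibroblasts in the differences of these complement genes was not tested.

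**Figure D4:**
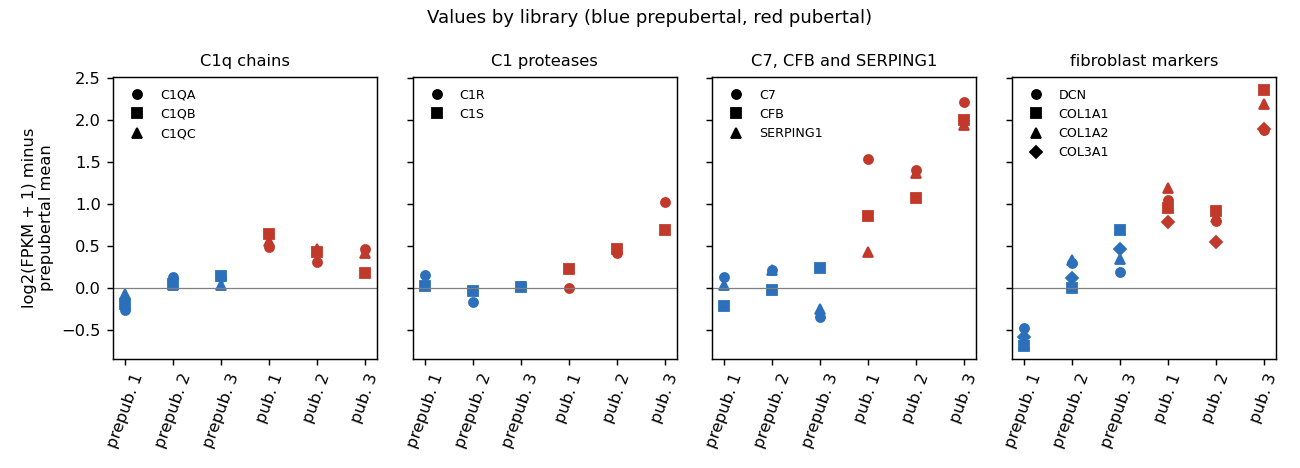
log2(FPKM + 1) minus the mean of the 3 prepubertal goats (vertical axis, the same in all panels) in each library (horizontal axis) for the C1q chains, the C1 proteases, C7 with CFB and SERPING1, and 4 fibroblast markers. The 4 markers are those of the 8 listed with an unadjusted p-value under 0.05 in limma. PDGFRA, the most abundant of the list, is not drawn and was highest in pubertal replicate 1. The last 3 panels have their highest points in pubertal replicate 3, and the C1q chains do not.

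The genes whose pattern over the 6 libraries was most like the mean of the C1q chains were NR4A3, HIF1AN, S1PR3, SETD7, UBE2L6, PARP14, TNFRSF11A, CARD9, ITGAL and GALNT10, with a Pearson r of log2(FPKM + 1) from 0.983 down to 0.958. They came first among 14077 genes with a mean of at least 1 FPKM, of which 17 had an r above 0.95. Since the stages differ in C1q, any gene that differs in the same way scores high over 6 libraries. Of the other complement genes described first, ITGAM had an r of 0.748, C1S 0.645, C3 0.631, C3AR1 0.625, C1R 0.307 and C5AR1 -0.0763. With the mean of each stage subtracted, C1R and C1S had an r of -0.682 and -0.589 with C1q, and of 6 microglia markers TREM2 had 0.792, AIF1 0.673, CTSS 0.494, TYROBP 0.244, CSF1R 0.218 and CX3CR1 0.0466. Over the 6 libraries without this step the same markers ran from -0.00255 for TREM2 to 0.506 for CTSS. The 10 genes with the highest r on that measure, none of them a complement gene and led by 106501828, LOC102191533 and ACAD11, had an r of 0.980 or more, and 58 genes had an r above 0.95. All these values come from the same 6 libraries and carry no test.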

How the data were processed

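Hypothalamus RNA of 3 pubertal and 3 prepubertal goats was sequenced by the authors after removal of ribosomal RNA, with strand-specific paired-end libraries. The authors aligned the reads with TopHat to the goat genome, assembled transcripts with Scripture and Cufflinks 2.1.1, and deposited FPKM values per transcript and library. The genome build is not given in the sources used here. The deposited comparison of both stages (Cuffdiff 2.1.1) holds group FPKM, fold changes, p-values and q-values, none of which was used. It served to pair transcripts with genes. Symbols came from the RefSeq gene table of ARS1.2, which matched 19083 of 20225 genes (94.4%).

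FPKM was summed by gene, and stages were compared with limma 3.58.1 in R 4.3.3 by lmFit and a two-sided eBayes test with a trend, run on log2(FPKM + 1), for genes with a mean of at least 0.1 FPKM, with Benjamini-Hochberg adjustment over all genes and a threshold of 0.05. The fit was tested on simulated data. Python 3.11.15, numpy 2.4.6, pandas 2.3.3 and matplotlib 3.10.9 were used otherwise. Samples were grouped by their titles. The 9 genes and all gene lists were chosen with earlier results of these data known. Of 159 symbols listed, 137 were found. A complement gene of the original list is not reported here. The genes named were the 9, the other complement genes with an unadjusted p-value under 0.05 or the highest level in their role, the 10 genes most like C1q, and markers. C1QBP, VTN, C5, C6, MX1, ALDH1L1, NKD2, the genes next to the C1q chains and gene 102188033 were named after their values were seen. So were genes passing an adjusted threshold under an alternative. Alternatives were a pseudocount of 0.1, no minimum, a minimum of 1 FPKM, median centring, quantile normalization, no trend, a replicate block, the most abundant transcript only and leaving out each library. The sum of both C3 models was added after the data were seen. lncRNA values and sequences were used only beside C3 and C1R. All columns of single libraries were used. Promoter and protein sequences were not used here.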

Additional observations from a re-analysis of the deposited data

How the results depend on the processing

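The mean log2 difference of the C1q chains ran from 0.35 to 0.49 with each library left out and from 0.43 to 0.47 under the other 8 alternatives, of which 4 (both minimums, no trend and the replicate block) leave a difference of means as it is by construction. Its value relative to the microglia markers ran from 0.32 to 0.45 and from 0.38 to 0.42. The median of the other 6 members ran from 0.24 to 0.39. Of 127 values of single members, 41 equalled the reported value, and none of the other 86 changed sign. Median centring and quantile normalization moved the median difference of all genes by -0.01 and -0.03. The median of the microglia markers ran from -0.0125 to 0.12 with each library left out, with the lowest value, -0.0125, without pubertal replicate 1. The median of the fibroblast markers ran from 0.49, without pubertal replicate 3, to 1.40. The number of other complement genes with an unadjusted p-value under 0.05 ran from 5 to 8 higher and from 0 to 1 lower with each library left out, and no alternative gave any of them an adjusted p-value under 0.05. Over all genes, the counts at an unadjusted p-value under 0.05 ran from 338, without prepubertal replicate 1, to 983, without pubertal replicate 1, for higher genes, and from 164 to 1239 for lower genes with the same libraries left out. At an adjusted p-value under 0.05 they ran from 0 to 4 (FAM110C, LOC102175177, LOC102188588 and 106501851 without pubertal replicate 2, CGA without prepubertal replicate 2, LOC106503831 without prepubertal replicate 3). The cause was not tested. The deviations of samples with the same replicate number had correlations of -0.0286, -0.107 and 0.0876 for replicates 1, 2 and 3. Those of samples with different numbers ran from -0.128 to 0.170. With 3 libraries per stage, such values cannot show whether samples of the same number share a batch. With the replicate number as a block the count at an adjusted p-value under 0.05 was 1 (LOC106503629). The deposited FPKM values carry no counts, and counting error was not estimated here.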

Other observations

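Of 9 interferon-stimulated genes listed, 6 were found, with a median log2 difference of 0.67, and none passed the adjusted threshold in limma. In 5 of the 6 the pubertal libraries all lay above the prepubertal ones, as in 5.91% of all genes, and the same 5 had an unadjusted p-value under 0.05 and a higher pubertal mean, as did 3.51% of all genes. The exception was MX1, at 28.5, 21.4 and 42.9 FPKM in the pubertal goats against 25.3, 17.2 and 20.6 FPKM (replicates 1, 2 and 3). IFI6 averaged 290 ± 39.7 FPKM at puberty against 159 ± 3.98 FPKM before it, and ISG15, a ubiquitin-like modifier, had 56.0 ± 12.8 and 25.6 ± 1.85 FPKM (SD, n = 3 each). Both had an adjusted p of 0.230 in limma, the smallest of any gene, which C7 and at least 1 gene outside these lists shared. UBE2L6, which conjugates ISG15 to its targets, was among the 10 genes most like the C1q chains, reaching 11.9, 11.4 and 11.3 FPKM in the pubertal goats against 8.23, 8.60 and 9.22 FPKM (replicates 1, 2 and 3).

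Genes of the C1q-domain family that are not complement components were set beside the C1q chains. Of 18 listed, 15 were found, and their median log2 difference was 0.13. C1QL3, a synaptic secreted protein, reached 29.5, 26.3 and 12.99 FPKM in the pubertal goats against 25.5, 31.5 and 30.7 FPKM. CBLN2, an organiser of synapses, was at 30.6, 29.9 and 27.1 FPKM in the pubertal goats against 36.7, 31.9 and 31.3 FPKM. It did not overlap and was lower in the pubertal goats, as were 3.84% of all genes tested. CBLN3 was the 1 gene of the family with an unadjusted p-value under 0.05, with a log2 difference of 0.57 (adjusted p = 0.938 from limma). Over all genes 3.51% had such a p-value and a higher pubertal mean, so nothing is read from this count. Among the astrocyte markers the summed FPKM ran from 6190 to 6436 in pubertal and from 6071 to 6377 in prepubertal libraries, with GFAP and S100B the most abundant. Of the 8, ALDH1L1 alone had an unadjusted p-value under 0.05, at 11.4, 15.2 and 18.95 FPKM in the pubertal goats against 11.1, 8.02 and 9.13 FPKM (log2 difference 0.62, adjusted p = 0.795 from limma). The 5 neuron markers found had a median log2 difference of -0.08.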
